A study of Mus musculus with 15 samples.

Results

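The 38 genes described here encode the contractile apparatus of striated muscle and the proteins that supply it with calcium and energy. They were chosen as a list of gene symbols: 10 genes of the thick filament, 10 of the thin filament, 9 of the Z-disc and its scaffold, 5 of calcium handling and 4 of energy metabolism. Each symbol matched 1 row of the count table, so all 38 of 38 were found among 55487 genes. By fibre type, 14 were counted as fast-fibre genes, 7 as slow-fibre genes and 17 as shared by both.

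Expression was measured by 3′ end sequencing of messenger RNA from skin of C57BL/6 mice aged 3 weeks, in 15 libraries. There were 5 libraries from WT skin labelled non-lesional, 5 from non-lesional OTULIN-KO skin and 5 from lesional OTULIN-KO skin. OTULIN-KO mice carried Otulin fl/fl together with K14-Cre, a Cre driven by a keratinocyte promoter, so muscle cells were not the cells targeted. WT mice were littermates that carried loxP-flanked alleles without Cre. The labels do not say which animal gave which sample, whether lesional and non-lesional pieces came from the same animal, or how deep below the dermis a sample reached. P-values therefore measure the spread between these libraries.

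Skeletal muscle contracts when myosin in the thick filament pulls on actin in the thin filament, within a repeating unit, the sarcomere, that is bounded by Z-discs. Calcium released from the sarcoplasmic reticulum binds troponin on the thin filament and allows this. Adult fibres are classed by their myosin heavy chain as slow (type I, *Myh7*) or fast (IIA, *Myh2*; IIX, *Myh1*; IIB, *Myh4*), and most other sarcomere proteins also exist in a fast and a slow form encoded by different genes. Beneath the dermis of the mouse lies a thin sheet of skeletal muscle, the panniculus carnosus.

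Library totals ran from 1962604 to 2567138 counts. *Otulin*, the gene targeted, had 29 to 69 counts per library with overlapping groups. A 3′ tag may lie outside the deleted part, and whole skin holds cells without K14 activity, so this is no check of the labels. 2 lesional libraries stood apart from the other 13. *Krt6b*, a keratin of activated epidermis, stood at 3523 CPM (CPM being a count over its library's total, scaled to the same total for every library) in lesional replicate 2 and at 8478 CPM in lesional replicate 11. In the other 3 lesional libraries it stood at 2.55, 1.2 and 4.62 CPM, beside 1.26 to 17.6 CPM in WT, and in non-lesional replicate 3 at 221 CPM. The medians over the members, the calcium handling genes, *Tnnt1*, *Mb*, *Tcap*, *Smpx* and the heavy chain composition are given with and without lesional replicates 2 and 11.

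Promoter sequences were at hand for 31 of the 38 genes (RefSeq, GRCm38.p6). The *Myh4*, *Myh1*, *Acta1* and *Ckm* promoters are shown because the first pair encodes the fast heavy chains whose balance differed between libraries, and the others encode the actin and the creatine kinase of the same fibres. Each sequence is the 250 bases before the RefSeq start, 5′ to 3′ on the strand of the gene. Capitals mark the letters CAGCTG (an E-box), TATAAA or the CArG box, on either strand. *Myh4* is at chr11:67237562-67237811, plus strand, *Myh1* at chr11:67199852-67200101, plus strand, *Acta1* at chr8:123894776-123895025, minus strand, and *Ckm* at chr7:19410844-19411093, plus strand.
Myh4: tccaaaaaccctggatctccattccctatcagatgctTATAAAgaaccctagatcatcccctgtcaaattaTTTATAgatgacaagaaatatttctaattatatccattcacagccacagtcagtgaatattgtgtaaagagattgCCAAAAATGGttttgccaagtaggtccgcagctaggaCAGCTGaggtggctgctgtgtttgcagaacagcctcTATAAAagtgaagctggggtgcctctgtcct
Myh1: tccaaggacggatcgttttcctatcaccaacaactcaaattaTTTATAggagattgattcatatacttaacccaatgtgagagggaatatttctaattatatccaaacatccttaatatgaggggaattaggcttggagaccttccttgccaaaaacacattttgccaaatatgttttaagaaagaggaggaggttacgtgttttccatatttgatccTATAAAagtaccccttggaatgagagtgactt
Acta1: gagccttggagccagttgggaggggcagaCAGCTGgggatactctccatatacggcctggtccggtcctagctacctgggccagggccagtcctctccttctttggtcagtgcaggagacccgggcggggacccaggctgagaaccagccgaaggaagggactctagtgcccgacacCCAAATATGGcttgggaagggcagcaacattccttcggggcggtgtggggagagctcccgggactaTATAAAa
Ckm: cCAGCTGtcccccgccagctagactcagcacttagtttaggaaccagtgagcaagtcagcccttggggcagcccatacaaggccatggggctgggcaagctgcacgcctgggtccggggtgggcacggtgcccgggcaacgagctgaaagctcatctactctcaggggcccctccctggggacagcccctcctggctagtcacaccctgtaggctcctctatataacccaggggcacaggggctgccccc

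E-boxes are bound by MyoD-family regulators, the CArG box by serum response factor and the MEF2 core motif by MEF2 proteins. In windows from 250 bases before to 50 after the start, searched on both strands, CAGCTG was held by 16 of the 31 genes (51.6%) and by 18.3% of all 27025 genes with an entry. The other E-box searched, CACCTG, was in 25.8% of the 31 and 22.6% of all. The MEF2 core motif was in 12.9% against 4.23%, TATAAA in 22.6% against 15.7% and the CArG box in 12.9% against 1.81%. CAGCTG and CACCTG cannot lie on the same bases, and matches of the other motifs may overlap. *Myh4* held CAGCTG at 67 to 62 bases before the start, and no copy of it was found in the *Myh1* window, which says only that these letters are not there. Both held TATAAA close to the start, at 31 to 26 bases before it in *Myh4* and at 32 to 27 in *Myh1*.

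The 3 fast heavy chain genes lie in a cluster on chromosome 11 (GRCm38): *Myh2* at 67171027 to 67197517, *Myh1* at 67200052 to 67224575 and *Myh4* at 67238029 to 67260446, all on the plus strand. *Myh7* lies on chromosome 14 at 54970684 to 54994626, minus strand. *Ttn*, the gene of the giant scaffold protein titin, lies on chromosome 2 at 76703980 to 76982547, minus strand, with 345 merged exons.

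The muscle genes took several percent of the counts of 14 libraries and under 1% of those of lesional replicate 11. Together the 38 genes held 1748879 counts. Their share of all counts was 4.08%, 5.79%, 5.22%, 6.89% and 3.7% in WT replicates 1, 4, 7, 10 and 13, 6.44%, 5.68%, 3.71%, 4.86% and 5.46% in non-lesional replicates 3, 6, 9, 12 and 15, and 3.96%, 6.14%, 5.42%, 0.907% and 7.55% in lesional replicates 2, 5, 8, 11 and 14. This order of replicates is kept for all values below. The groups overlapped throughout, and both the highest and the lowest share of all 15 libraries were lesional. The means were 5.14% ± 1.30 in WT, 5.23% ± 1.02 in non-lesional and 4.80% ± 2.53 in lesional skin (SD, n = 5 each). Without lesional replicate 11 the lesional mean was 5.77% ± 1.498 (SD, n = 4). Counting error was small beside this spread: the share of 0.907% in lesional replicate 11 had a 95% Wilson interval of 0.895% to 0.92%. In bulk skin, fewer muscle cells and less muscle RNA per cell cannot be told apart.

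**Figure D1:**
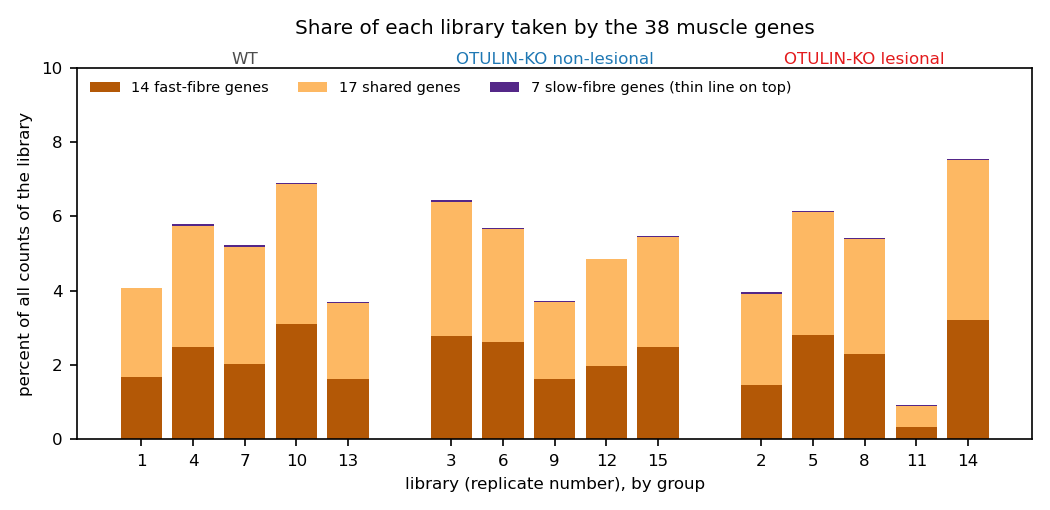
Percent of all counts of each library taken by the 38 muscle genes, stacked by fibre type, with the 15 libraries on the x axis by group. The lesional group holds both the lowest bar, 0.907% in replicate 11, and the highest, 7.55% in replicate 14.

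The fast-fibre genes took 1.68%, 2.48%, 2.04%, 3.11% and 1.61% of all counts in WT, 2.77%, 2.6%, 1.61%, 1.98% and 2.48% in non-lesional and 1.45%, 2.81%, 2.29%, 0.328% and 3.2% in lesional libraries. The slow-fibre genes took 0.0219%, 0.0364%, 0.0336%, 0.0224% and 0.0192% in WT, 0.0393%, 0.0169%, 0.0202%, 0.0243% and 0.0208% in non-lesional and 0.0381%, 0.0202%, 0.0272%, 0.00609% and 0.0307% in lesional libraries. Fast genes thus held 42.8% of the muscle counts over all libraries, slow genes 0.498% and shared genes 56.7%. *Ttn* alone held 22.3%, followed by *Acta1* with 12.3%, *Myh4* with 10.1%, *Tpm1* with 5.52% and *Atp2a1* with 5.02%. Of the slow counts, 97.6% were from *Mybpc1*, the slow form of myosin binding protein C, and the other 6 slow genes had 208 counts in all 15 libraries.

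The slow forms were nearly absent while their fast counterparts were among the abundant transcripts of the skin. *Myh7*, the slow heavy chain, had 4 counts over the 15 libraries and *Myh4*, the IIB heavy chain, 175969. For the regulatory light chain, *Myl2* had 6 counts and the fast gene *Mylpf* 52690. The essential light chain gene *Myl3*, slow, had 26 counts and *Myl1*, fast, 77685. Troponin is the calcium switch of the thin filament, with subunits I, T and C. Its slow subunit genes *Tnni1*, *Tnnt1* and *Tnnc1* had 9, 158 and 5 counts, and their fast counterparts *Tnni2*, *Tnnt3* and *Tnnc2* had 63679, 84034 and 87085. In each of these pairs the fast gene was above the slow gene per kb of exon in 15 of 15 libraries. Summed counts per kb were 741 times higher for *Tnnt3* than for *Tnnt1* and 2940 times higher for *Myl1* than for *Myl3*. *Myh7* had 2 counts in WT replicate 1, 2 in non-lesional replicate 3 and 0 in the other 13 libraries. *Tnnc1* had 1 count in non-lesional replicate 3, 4 in non-lesional replicate 12 and 0 in the other 13. *Myl2* had 2 counts in non-lesional replicate 12, 1 each in non-lesional replicates 3 and 15 and lesional replicates 5 and 14, and 0 in the other 10. These 3 genes were thus seen in a few libraries only, by 1 to 4 counts in each. *Tnni1* had 2 counts each in WT replicate 1 and non-lesional replicate 12, 1 each in WT replicates 7 and 13 and lesional replicates 2, 5 and 8, and 0 in the other 8. *Myl3* had 2, 2, 3, 2 and 2 counts in WT, 2, 1, 3, 0 and 2 in non-lesional and 1, 0, 1, 1 and 4 in lesional libraries. A count of 0 allows up to 3 counts in a library, and counts per kb understate long genes where reads come from the 3′ end.

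2 pairs did not follow this pattern. *Mybpc2*, the fast form of myosin binding protein C, had 8429 counts and slow *Mybpc1* 8507, and the fast gene was above the slow one per kb in 9 of 15 libraries. *Actn3*, the α-actinin of fast fibres, had 6423 counts and *Actn2*, the form in all fibres, 3812, with *Actn3* above per kb in 13 of 15. *Mybpc1* is named for slow fibres but is known to be made in fast fibres too, which these counts from whole skin cannot resolve.

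**Figure D2:**
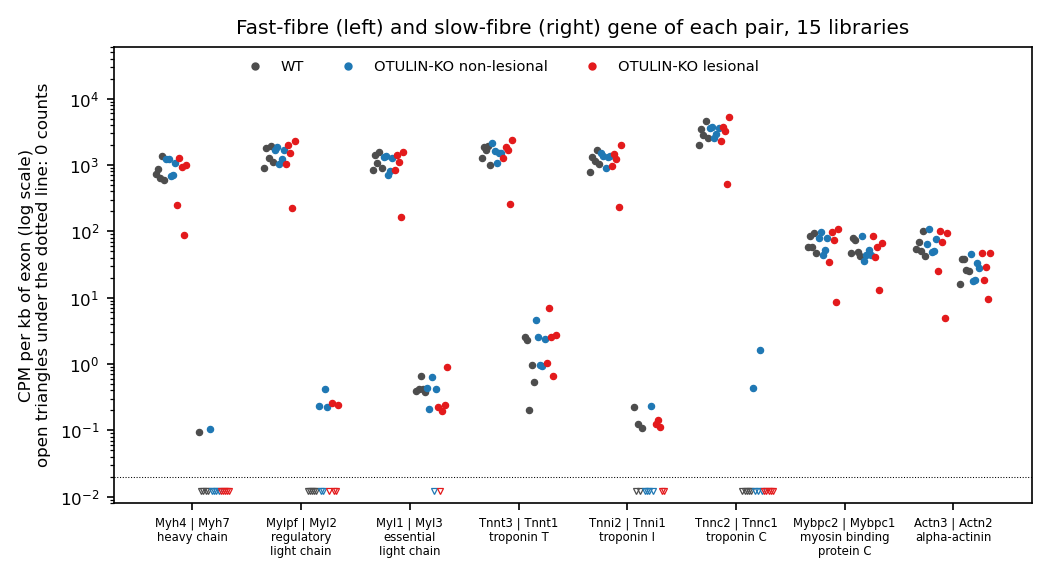
CPM per kb of exon, on a log axis, for 8 pairs of genes in 15 libraries, with the fast-fibre gene left and its slow-fibre counterpart right (*Actn2* is in all fibres). In the first 6 pairs all fast values lie above all slow values, in the last 2 pairs the ranges overlap, and open triangles mark libraries with 0 counts.

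The 3 comparisons of the design ask how non-lesional and lesional OTULIN-KO skin differ from WT skin and from each other. In none of the 3 comparisons did a muscle gene pass the test. The filter on low counts left 33 of the 38 in each comparison. *Myh7*, *Myl2*, *Myl3*, *Tnnc1* and *Tnni1* did not pass it. By edgeR's quasi-likelihood test with Benjamini-Hochberg adjustment, 0 of the 33 had an adjusted p under 0.05 in any comparison, and 0 had an unadjusted p under 0.05. DESeq2's Wald test also called 0 members. No member had groups that did not overlap.

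Among all genes edgeR called none, and DESeq2 called 1, 14 and 0 genes in the 3 comparisons, all of them higher and none of them a member. Between non-lesional and WT skin, 0% of 13021 genes had an adjusted p under 0.05, 1.85% were higher and 1.31% lower at an unadjusted p under 0.05, and 0.645% had groups that did not overlap. Between lesional and WT skin the shares of 12918 genes were 0%, 3.24%, 1.56% and 0.619%. Between lesional and non-lesional skin those of 12864 genes were 0%, 2.89%, 1.33% and 0.669%. With 33 members and backgrounds of 3.24% or less, counts of 0 among the members are near the background.

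The median log2 fold change of the 33 members was 0.0051 from WT to non-lesional skin (19 positive, 14 negative), beside a median of -0.0027 over all genes tested. It was -0.062 from WT to lesional skin (11 positive, 22 negative, all genes -0.0034) and -0.062 from non-lesional to lesional skin (9 positive, 24 negative, all genes 0.0031). The fast genes had medians of 0.031, -0.064 and -0.091 in these comparisons. Only 2 slow genes, *Mybpc1* and *Tnnt1*, were tested, with medians of 0.30, 0.48 and 0.18. The comparisons share their control libraries and are not independent of each other.

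The sign of these values depended on single libraries. Without lesional replicate 11, 31 of 33 members had a positive log2 fold change against WT (median 0.226) and 31 of 33 against non-lesional skin (median 0.207), and 0 passed the test in either. Without lesional replicate 14, which had the highest share, the medians were -0.317 and -0.324, with 3 positive and 30 negative in each. With both replicates 2 and 11 left out, the medians were 0.368 and 0.359 and again 0 members passed the adjusted test. At an unadjusted p under 0.05, 1 of 33 (*Tnnt1*) was higher than in WT skin, beside 394 of 13415 genes in either direction. Against non-lesional skin 3 of 33 were higher (*Cacna1s*, *Tpm2* and *Pygm*), beside 471 of 13403 genes. Against WT the median was also positive without lesional replicate 2 (0.0375), WT replicate 4 (0.028) or WT replicate 10 (0.093). Against non-lesional skin it was 0.0039 without lesional replicate 2. From WT to non-lesional skin it ran from -0.074 without WT replicate 13 to 0.141 without WT replicate 10. A fit with sets of 3 consecutive sample numbers as a block was added after seeing the data. In it the lesional median was -0.215 against WT (3 positive, 30 negative). Against non-lesional skin it was -0.312 (5 positive, 28 negative), and 0 members passed the adjusted test in either.

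**Figure D3:**
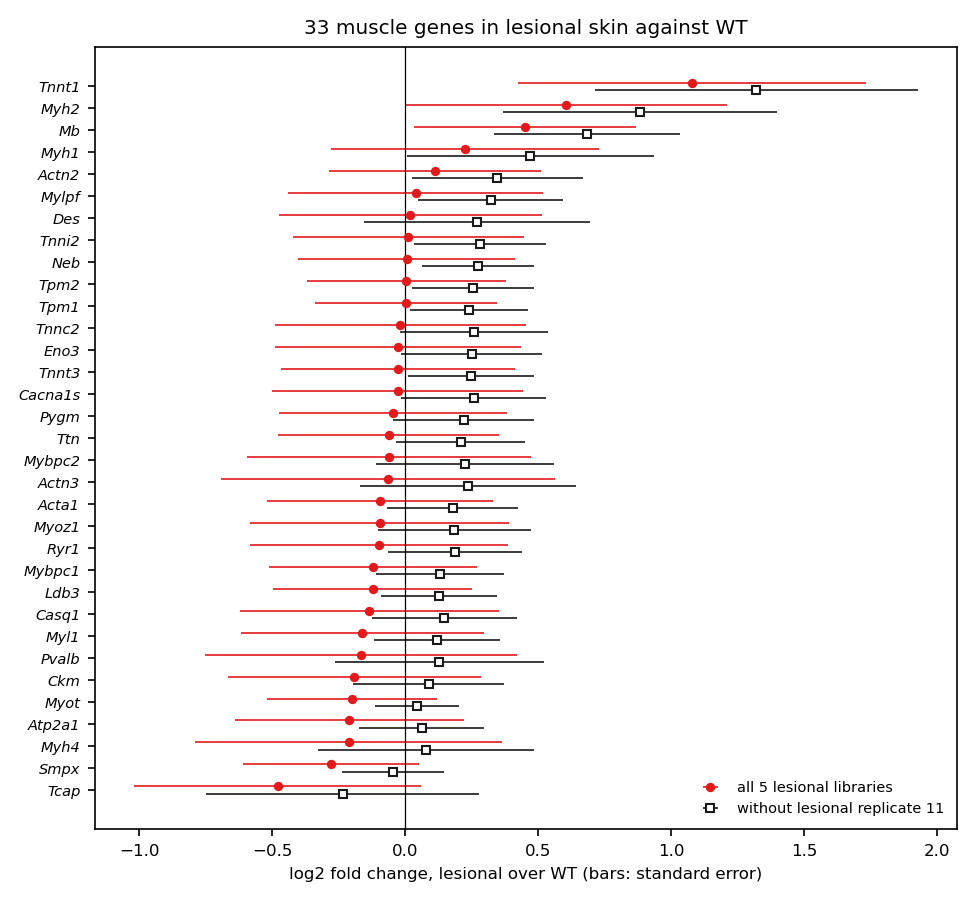
Log2 fold change of the 33 tested muscle genes in lesional over WT skin, with its standard error, in the fit with all 5 lesional libraries (filled circles) and without lesional replicate 11 (open squares). With all libraries 22 of the 33 lie below 0, and without replicate 11 only 2 do, while most bars reach 0 in the first fit.

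Among the thick filament genes, *Myh4* stood at 4377, 5244, 3876, 8135 and 3573 CPM in WT, 7491, 7268, 4149, 4202 and 6507 in non-lesional and 1490, 7623, 5696, 530 and 6030 in lesional libraries. The 2 lowest of the 15 values were those of lesional replicates 11 and 2. *Myl1*, the fast essential light chain gene, stood at 1719, 2921, 2201, 3230 and 1843 CPM in WT, 2743, 2806, 1455, 1685 and 2604 in non-lesional and 1719, 2899, 2311, 338 and 3201 in lesional skin. *Mylpf*, which encodes the fast regulatory light chain, stood at 952, 1897, 1340, 2056 and 1175 CPM in WT, 1797, 1973, 1114, 1309 and 1784 in non-lesional and 1089, 2091, 1607, 236 and 2466 in lesional skin. For both light chains lesional replicate 11 was lowest and lesional replicate 14 was highest or among the highest. *Myh1* stood at 578, 1223, 1304, 512 and 675 CPM in WT, 620, 313, 612, 977 and 762 in non-lesional and 1522, 394, 942, 273 and 1784 in lesional libraries. Here lesional replicate 2 was the second highest of 15, so that *Myh1* and *Myh4* parted in this library. The log2 fold change from WT to lesional skin was -0.21 ± 0.58 (SE) for *Myh4* and 0.22 ± 0.50 (SE) for *Myh1*. Between non-lesional and lesional skin it was -0.43 ± 0.58 (SE) for *Myh4* and 0.63 ± 0.50 (SE) for *Myh1*. From WT to non-lesional skin it was 0.23 ± 0.25 (SE) and -0.41 ± 0.37 (SE).

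The 2 myosin binding protein C genes differed in the lesional libraries. *Mybpc2* stood at 207, 309, 208, 344 and 168 CPM in WT, 282, 347, 158, 187 and 287 in non-lesional and 124, 357, 263, 30.7 and 387 in lesional skin. *Mybpc1* stood at 211, 358, 334, 221 and 189 CPM in WT, 380, 163, 199, 237 and 202 in non-lesional and 378, 186, 266, 58.9 and 299 in lesional skin. In lesional replicate 2 the fast gene was low and the slow gene high, and in replicate 11 both were lowest of 15. *Myh2*, the IIA heavy chain, ranged from 124 to 472 CPM in WT, 144 to 557 in non-lesional and 62.3 to 650 in lesional skin.

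In the thin filament, *Acta1* encodes skeletal α-actin and held the second most counts of the members. It stood at 4650, 7363, 7072, 7770 and 5290 CPM in WT, 7430, 6527, 4462, 6127 and 6977 in non-lesional and 5105, 6406, 6412, 1109 and 10460 in lesional skin, with a log2 fold change of -0.094 ± 0.42 (SE) from WT to lesional and -0.039 ± 0.18 (SE) from WT to non-lesional skin. *Tpm1* encodes a tropomyosin, which covers the myosin sites on actin and is also made outside skeletal muscle. It stood at 2472, 3179, 2904, 3571 and 1931 CPM in WT, 3664, 2902, 2188, 2421 and 2848 in non-lesional and 2538, 3195, 2839, 828 and 4404 in lesional skin. Lesional replicate 11 was the lowest library for both, by unequal factors: the median of the other 14 libraries was 3.47 times the value there for *Tpm1* and 5.83 times for *Acta1*.

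The fast troponin genes gave similar profiles over the libraries. *Tnnc2*, whose protein binds calcium, stood at 1585, 2815, 2289, 3739 and 2044 CPM in WT, 2908, 2944, 2064, 2380 and 2921 in non-lesional and 1806, 2983, 2593, 410 and 4270 in lesional skin. *Tnnt3*, whose protein binds tropomyosin, stood at 2040, 2948, 2619, 3081 and 1582 CPM in WT, 3332, 2555, 1693, 2394 and 2404 in non-lesional and 1991, 2989, 2641, 412 and 3790 in lesional skin. *Tnni2*, whose protein is the inhibitory subunit, stood at 1159, 1971, 1712, 2556 and 1573 CPM in WT, 2282, 2068, 1368, 1999 and 2060 in non-lesional and 1458, 2172, 1861, 345 and 3025 in lesional skin. In all 3 genes the groups overlapped, lesional replicate 11 was lowest and lesional replicate 14 highest.

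*Tnnt1*, the slow troponin T gene, had the largest positive log2 fold change of the members in both comparisons with WT, 0.77 ± 0.55 (SE) in non-lesional and 1.08 ± 0.66 (SE) in lesional skin, on very few counts. Its levels were 5.61, 5.09, 0.445, 2.11 and 1.17 CPM in WT, 10.3, 5.54, 2.13, 2.08 and 5.17 in non-lesional and 2.26, 15.3, 5.58, 1.46 and 6.0 in lesional skin, which is 1 to 30 counts a library. The exact permutation test (two-sided, smallest p possible 0.0079) gave p = 0.262 and p = 0.222, with n = 5 in each group. By edgeR the lesional value had an unadjusted p of 0.124 and an adjusted p of 0.926. Without lesional replicate 11 its log2 fold change against WT was 1.32 ± 0.61 (SE; edgeR unadjusted p = 0.0477, adjusted p = 1.0), and without lesional replicate 2 it was 1.29 ± 0.66 (edgeR unadjusted p = 0.0743, adjusted p = 0.999). Without both it was 1.61 ± 0.575 (SE; edgeR unadjusted p = 0.0136, adjusted p = 0.999), so *Tnnt1* did not pass the adjusted threshold in any of these. *Neb* (nebulin, a ruler of the thin filament) and *Tpm2* (β-tropomyosin) ranged from 368 to 2752 and from 613 to 3784 CPM.

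Of the Z-disc and scaffold genes, *Ttn* encodes the protein that spans from the Z-disc to the middle of the sarcomere. It stood at 10040, 12930, 12820, 14570 and 7204 CPM in WT, 14790, 11920, 8356, 11310 and 10970 in non-lesional and 10130, 13340, 12740, 2024 and 15920 in lesional skin. *Ldb3*, a Z-disc protein that binds α-actinin, stood at 275, 440, 450, 582 and 304 CPM in WT, 554, 402, 318, 478 and 418 in non-lesional and 384, 400, 411, 96.4 and 556 in lesional skin. *Des* encodes desmin, the intermediate filament that links Z-discs, and is also made in smooth muscle. It stood at 152, 402, 489, 296 and 420 CPM in WT, 270, 518, 132, 369 and 534 in non-lesional and 163, 386, 448, 89.1 and 654 in lesional skin, a wide spread within each group. Lesional replicate 11 was the lowest library for *Ttn*, *Ldb3* and *Des*.

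*Actn3* stood at 155, 197, 145, 297 and 121 CPM in WT, 187, 312, 143, 147 and 221 in non-lesional and 73.8, 298, 203, 14.1 and 271 in lesional skin. *Actn2* stood at 61.7, 142, 143, 97.8 and 95.8 CPM in WT, 171, 67.7, 69.4, 126 and 106 in non-lesional and 176, 70.8, 109, 36.0 and 182 in lesional skin. The 2 genes went opposite ways in lesional replicate 2, which was second lowest for *Actn3* and second highest for *Actn2*. *Tcap* (telethonin, the cap of titin) had the lowest log2 fold changes against WT, -0.46 ± 0.47 (SE) in non-lesional and -0.48 ± 0.54 (SE) in lesional skin, with WT values from 122 to 428 CPM. Its lesional value was -0.235 without lesional replicate 11, -0.351 without lesional replicate 2 and -0.0298 without both. *Smpx*, a small muscle protein, had -0.37 ± 0.31 (SE) between non-lesional and lesional skin, exact permutation p = 0.23 (n = 5 in each group). This value was -0.143 without lesional replicate 11, -0.409 without lesional replicate 2 and -0.119 without both. *Myoz1* and *Myot*, both of Z-disc proteins, ranged from 19.0 to 210 and from 21.4 to 131 CPM.

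In the calcium handling group, *Atp2a1* encodes the fast-fibre pump that returns calcium to the sarcoplasmic reticulum. It stood at 2361, 2764, 2700, 3694 and 1898 CPM in WT, 3279, 2648, 1737, 2708 and 2826 in non-lesional and 1741, 3134, 2509, 419 and 3562 in lesional skin. *Pvalb* encodes parvalbumin, a soluble calcium buffer of the fastest fibres, and stood at 1215, 1659, 1133, 2656 and 1016 CPM in WT, 1778, 2016, 1133, 1064 and 1737 in non-lesional and 651, 2448, 1491, 150 and 1986 in lesional skin. The values of lesional replicates 2 and 11 were the lowest of 15 for *Pvalb*, and its log2 fold change was -0.17 ± 0.59 (SE) from WT to lesional and 0.00098 ± 0.30 (SE) from WT to non-lesional skin. *Ryr1*, the calcium release channel, stood at 259, 299, 285, 464 and 216 CPM in WT, 378, 356, 193, 338 and 344 in non-lesional and 206, 396, 312, 40.4 and 441 in lesional skin. *Casq1*, which stores calcium in the reticulum, ranged from 37.5 to 397 CPM, and *Cacna1s*, the voltage sensor that opens the channel, from 4.87 to 69.3 CPM. All 5 genes of this group had a negative log2 fold change from WT to lesional skin, between -0.211 and -0.029, none past the test. Without lesional replicate 11 all 5 were positive, between 0.062 and 0.258, without lesional replicate 2 they lay between -0.12 and 0.074, and without both between 0.224 and 0.434, again none past the test.

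In the energy metabolism group, *Ckm* encodes muscle creatine kinase, which buffers ATP. It stood at 916, 1376, 1016, 1846 and 882 CPM in WT, 1525, 1417, 643, 1195 and 1276 in non-lesional and 682, 1640, 1151, 172 and 1551 in lesional skin. *Pygm*, the muscle glycogen phosphorylase, stood at 476, 594, 505, 777 and 410 CPM in WT, 602, 586, 340, 625 and 599 in non-lesional and 331, 747, 570, 112 and 864 in lesional skin. *Eno3*, the muscle enolase of glycolysis, stood at 338, 567, 516, 729 and 431 CPM in WT, 583, 657, 396, 547 and 656 in non-lesional and 379, 597, 528, 86.2 and 891 in lesional skin. These 3 genes were lowest in lesional replicate 11. *Mb* encodes myoglobin, the oxygen store of oxidative fibres, and ranged from 26.3 to 158 CPM. Its highest value was that of lesional replicate 2. The log2 fold change of *Mb* was 0.65 ± 0.50 (SE) between non-lesional and lesional skin and 0.45 ± 0.42 (SE) from WT to lesional skin. The first of these had an unadjusted p of 0.22 and an adjusted p of 0.973 by edgeR, the smallest among the members in that comparison. Without lesional replicate 2 the same values of *Mb* were 0.309 and 0.11, without lesional replicate 11 they were 0.878 and 0.684, and without both 0.567 and 0.364, none past the test.

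The 4 adult heavy chain genes gave the composition of the muscle RNA independently of its amount. *Myh4* made up 85.9%, 77.6%, 68.6%, 91.8% and 81.7% of the *Myh1*, *Myh2*, *Myh4* and *Myh7* counts in WT, 86.4%, 92.8%, 84.6%, 75.2% and 87.1% in non-lesional and 41.3%, 93.1%, 81.2%, 61.2% and 71.2% in lesional libraries. *Myh1* made up 11.3%, 18.1%, 23.1%, 5.78% and 15.4% in WT, 7.15%, 4.0%, 12.5%, 17.5% and 10.2% in non-lesional and 42.2%, 4.82%, 13.4%, 31.6% and 21.1% in lesional libraries. *Myh2* made up 2.41% to 8.35% in WT, 2.74% to 7.28% in non-lesional and 2.06% to 16.5% in lesional skin. *Myh4* was thus the main heavy chain gene in 14 of 15 libraries, and in lesional replicate 2 *Myh1* and *Myh4* were about equal. The mean *Myh4* share was 81.1% ± 8.76 in WT, 85.2% ± 6.38 in non-lesional and 69.6% ± 19.8 in lesional skin (SD, n = 5 each), and the groups overlapped. In lesional skin it was 76.7% ± 13.7 without replicate 2, 71.7% ± 22.2 without replicate 11 (SD, n = 4 each) and 81.9% ± 10.9 without both (SD, n = 3). This composition was examined after its values were seen and was not tested between groups. The heavy chain genes are similar in sequence, and by the study's methods reads without a unique match were left out before counting. How many reads of each gene this removed was not examined. *Myh1* and *Myh2* also share exon bases with a gene on the opposite strand, and *Myh4* does not. The counts of *Myh1* and *Myh2* may therefore hold reads of those genes. The lowest *Myh4* shares were those of lesional replicates 2 and 11, the libraries with high *Krt6b*. Lesional replicate 2 had a muscle share of 3.96%, within the range of WT. The part of the lesion or of the site sampled in this composition was not tested.

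**Figure D4:**
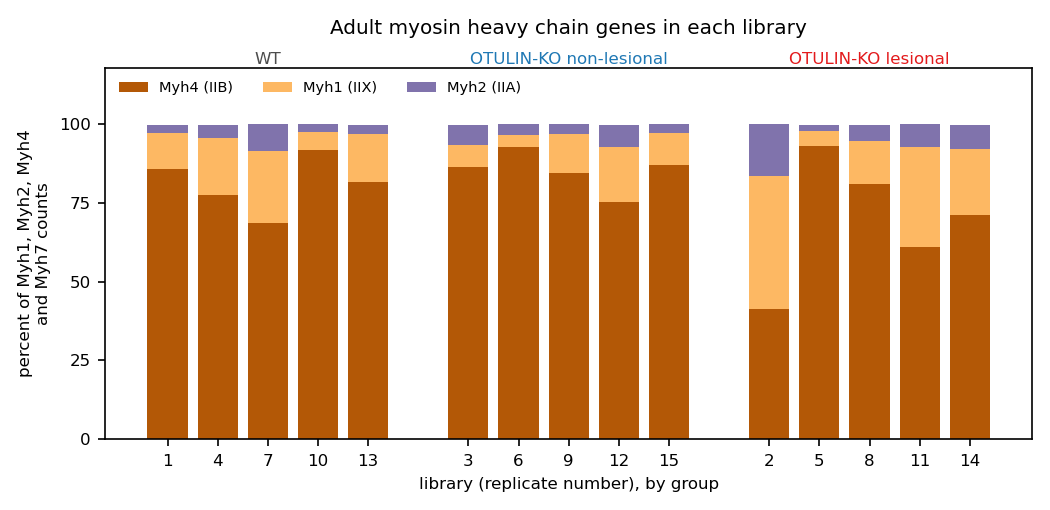
Percent of the counts of the adult heavy chain genes taken by *Myh4*, *Myh1* and *Myh2* in each of the 15 libraries, by group (*Myh7* is at most 0.0157% and cannot be seen). *Myh4* takes 68.6% to 92.8% in all WT and non-lesional libraries, 41.3% in lesional replicate 2 and 61.2% in lesional replicate 11.

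Some of the other members followed the balance of *Myh4* and *Myh1*. Each member was divided by the counts of all 38, and its log2 was set against the log2 ratio of *Myh4* to *Myh1* counts over the 15 libraries, which ran from -0.031 in lesional replicate 2 to 4.54 in non-lesional replicate 6. The shares all have the same denominator, so part of any correlation is built in, and the values are a description with no test. Of 31 members compared, 7 had a Pearson r over 0.5, 9 had one under -0.5 and 15 lay between. The highest were *Pvalb* (r = 0.919, Spearman's rho = 0.911), *Actn3* (r = 0.854, rho = 0.832), *Mybpc2* (r = 0.803, rho = 0.657) and *Ckm* (r = 0.751, rho = 0.700). The lowest were *Mb* (r = -0.927, rho = -0.918), *Actn2* (r = -0.900, rho = -0.825), *Mybpc1* (r = -0.833, rho = -0.757) and *Myh2* (r = -0.719, rho = -0.643). Without the 2 libraries farthest from the median ratio, lesional replicate 2 and non-lesional replicate 6, r was 0.893 for *Pvalb*, 0.750 for *Actn3*, -0.854 for *Mb* and -0.828 for *Actn2*. It was weaker for *Mybpc2* (0.63), *Ckm* (0.647), *Mybpc1* (-0.675) and *Myh2* (-0.618). *Myoz1* moved from 0.528 to 0.293, *Myot* from -0.565 to -0.319 and *Des* from -0.114 to -0.57.

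Other fast genes had values nearer 0. *Tnni2* had r = -0.144, *Tnnt3* -0.286, *Tnnc2* 0.234 and *Atp2a1* 0.373. *Myl1* had 0.422, *Mylpf* 0.449, *Myoz1* 0.528 and *Casq1* 0.573. Libraries with a lower ratio thus held relatively more *Myh2*, *Mb* and *Actn2* and relatively less *Pvalb* and *Actn3*. *Mb* made up 3.98 of every 1000 muscle counts in lesional replicate 2, 2.9 in replicate 11 and 0.487 to 1.97 in the other 13 libraries. *Pvalb* made up 16.5 in both of these libraries and 21.7 to 39.9 in the others.

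**Figure D5:**
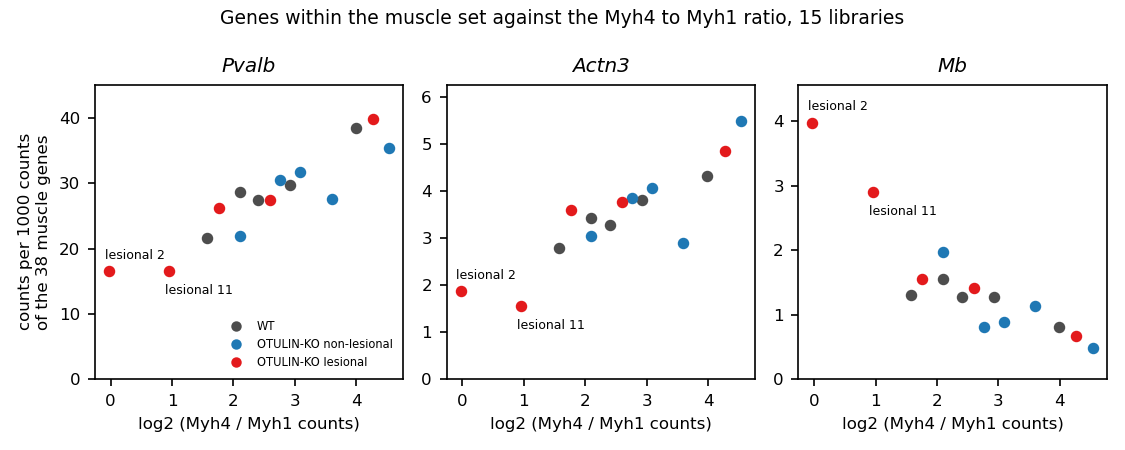
Counts of *Pvalb*, *Actn3* and *Mb* per 1000 counts of the 38 muscle genes (y axes) against the log2 ratio of *Myh4* to *Myh1* counts (x axes), 1 point per library, coloured by group. *Pvalb* and *Actn3* go up with the ratio and *Mb* goes down, with lesional replicates 2 and 11 at the left end.

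Lesional replicate 11 was the lowest of the 15 for every member with a mean over 10 CPM, but not by the same factor. The median of the other 14 libraries was 13.6 times its value for *Actn3*, 10.5 times for *Pvalb* and 10.3 times for *Myh4*, against 2.35 times for *Mb*, 2.63 for *Myh1* and 2.98 for *Actn2*. *Ttn* lay between at 6.09 times. The summed levels of other lists were also at an end of the range in this library, though not every gene of a list was. The summed level of 8 lesion epidermis genes was 37460 CPM there, beside 16510 in lesional replicate 2 and 660 to 2278 in the WT libraries. That of 7 keratinocyte genes was 15890 CPM, the highest of 15, with 4 of the 7 highest there and *Col17a1* lowest. *Krt14*, a basal keratin, stood at 5759 CPM beside a WT median of 840.8, and *Krt10*, a suprabasal keratin, at 1329 CPM beside 3668. That of 6 fibroblast genes was 15920 CPM, beside 26610 to 70180 in the other 14, with 5 of the 6 lowest there. That of 10 fat cell genes was 1300 beside 1516 to 3924, but only 2 of the 10 were lowest there. That of 12 smooth muscle genes was 452 CPM beside 732 to 1329. One of the 12 is *Des*, also a member, and without it the sum was 363 CPM beside 530 to 903. Of the 12, 7 were lowest in this library, but *Acta2* (135 CPM), *Tagln* (36.0) and *Smtn* (73.5), all of contractile or cytoskeletal proteins of smooth muscle, were within the range of the other 14. Every gene of these lists was detected in at least 1 library. Their part in the low muscle share was not tested.

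Muscle genes outside the 38 were counted in the same way. Of 62 further striated muscle genes, 60 were tested between non-lesional and WT skin (30 positive, 30 negative, median log2 fold change 0.001), 59 between lesional and WT (16 positive, 43 negative, median -0.046) and 59 between lesional and non-lesional skin (21 positive, 38 negative, median -0.033). None had an unadjusted p under 0.05. Their summed level was 5215 to 9143 CPM in WT, 5541 to 8489 in non-lesional and 1771 to 9391 in lesional skin, and 1771 was again lesional replicate 11. Of 16 regulators and genes of the neuromuscular junction, 9 were tested and 0 passed. *Mef2c* and *Mef2d*, which are also active outside muscle, led the list with WT medians of 401 and 134 CPM. The myogenic factors *Pax7*, *Myf5*, *Myod1* and *Myog*, active in satellite cells and in regenerating fibres, had 63, 46, 190 and 241 counts over the 15 libraries. *Myf6*, also a myogenic factor, had 291.

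Genes of embryonic and newborn muscle differed in level. *Tnnt2* had 414 counts over 15 libraries and *Myl4* 148, with no library at 0. *Myh3*, the embryonic heavy chain, had 12 counts over 15 libraries and was at 0 in 7, and *Chrng*, the fetal receptor subunit, had 4. *Myh8*, the perinatal heavy chain, had medians of 13.6 CPM in WT, 12.45 in non-lesional and 18.7 in lesional skin. *Actc1*, cardiac actin, which developing skeletal muscle also uses, ran from 8.89 to 124 CPM in WT, 12.3 to 97.1 in non-lesional and 0.973 to 121 in lesional skin. Of the 6 developmental genes, 3 or 4 were tested in a comparison and 0 passed. Of 6 heart muscle genes, *Ryr2*, the calcium release channel of the heart, which is also made in other tissues, had the most counts, 174 over the 15 libraries, with none at 0 and medians of 7.21 CPM in WT, 4.26 in non-lesional and 5.08 in lesional skin. *Tnni3*, cardiac troponin I, had 32 counts and was at 0 in 1 library. *Myh6* had 6 counts, *Nppa* 6, *Myl7* 3 and *Myl2*, also one of the 38, 6.

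Outside the fixed list, 14 of the 15 genes whose log2 CPM followed the summed level of the 38 most closely over the 15 libraries were *Rabep2* (Pearson r = 0.988), *Srl* (0.986), *Hrc* (0.986), *Myom1* (0.985), *Eef1a2* (0.985), *Cox8b* (0.983), *Asph* (0.983), *Myom2* (0.982), *Tmem38a* (0.981), *Ube2c* (0.980), *Jph1* (0.980), *Sypl2* (0.980), *Ank1* (0.979) and *Mypn* (0.978), of 9667 genes with a mean of at least 10 CPM. Of the 15, 9 were on the list of further striated muscle genes. Lesional replicate 11 weighs heavily in these values, and 10 of the 15 were still among the first 15 without it. *Rabep2*, of an endosomal Rab effector, and *Ube2c*, of a ubiquitin-conjugating enzyme of mitosis, are no muscle genes, but each shares exon bases with a member on the opposite strand, *Rabep2* with *Atp2a1* and *Ube2c* with *Tnnc2*. The counting counted a read for every gene it overlaps and no strand option is listed in the study's methods, so reads of the 2 genes of such a pair cannot be told apart. Exons of 17 of the 38 members overlap such a partner, and none overlaps a gene on its own strand. Among them are *Tnnc2*, *Atp2a1*, *Myh1*, *Myh2*, *Mb*, *Mybpc2*, *Cacna1s* and *Ckm*, whose counts may hold reads of the partner.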

How the data were processed

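Skin of 3 groups of 5 libraries was profiled by 3′ messenger RNA sequencing (QuantSeq 3′ FWD). According to the study's methods and the submitters' processing notes, reads were trimmed with cutadapt 2.10 (reads under 35 bases discarded), aligned with Subread to GRCm38 joined with ERCC spike-ins, filtered with SAMtools to primary matches of mapping quality 30 or more, and counted per gene over exons with featureCounts 2.0.1. The deposited counts are whole numbers, not normalized. A read that overlapped several genes by at least 20 bases was counted for each, and a strand setting and the annotation release are not given in the sources used here. The authors also deposited CPM, which equal count over library total to within 5.1e-11 and were used for levels. The 92 spike-in rows sum to 0 and were left out. The methods state that RNA integrity was measured, but values per sample are not used here. PCR copies were not removed, so intervals cover counting error only.

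Each comparison was fitted on its 2 groups with edgeR 4.0.16 in R 4.3.3 (TMM, filterByExpr, robust quasi-likelihood F-test, Benjamini-Hochberg adjustment over all genes tested, threshold 0.05). Standard errors were taken as |log2 fold change| over the root of F. Single genes were tested with the exact permutation test on log2 CPM (prior count 2). Coordinates and exon lengths came from GENCODE M21 on GRCm38, with 55141 of 55487 genes matched. The fit was tested on simulated data with known changes, set to the spread of the non-lesional and WT libraries. It was not tested at the larger spread of the lesional libraries. The groups share no replicate number and the labels do not say which samples came from 1 animal, so whether samples are paired is not known and the comparisons were fitted without a block. The sample numbers cycle through WT, lesional and non-lesional skin in sets of 3, and a fit with these sets as a block was added after seeing the data.

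The members and lists were chosen with earlier results of these data known, and fibre classes were set by textbook knowledge. Values per library are given for the 3 members with the highest mean CPM in each of the 5 role groups and for the fast and slow gene of a protein (as counts for the slow genes under the filter). For other lists at most 4 genes with the highest mean CPM were to be named, and the other myogenic, developmental and heart genes named were chosen after their values were seen. Of genes outside the 38, the 15 with the highest and the 15 with the lowest correlation with their summed CPM (log2, pseudocount 1) are named, except 1 of the highest, which is not reported here. Alternatives were DESeq2 1.42.0, other size factors, upper quartile normalization, other filters, 1 fit of all 15 libraries, no robust estimation, other share denominators, reduced fibre lists and leaving out each library.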

Additional observations from a re-analysis of the deposited data

Results flagged for a closer look

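Within each group of 5, a library was set apart when its gap to the next library exceeded 0.71 of the range of the group. Among 114 such groups, 3 values were, where about 1 in 20 groups would be by chance. *Myot*, a Z-disc protein gene, stood at 21.42 CPM in lesional replicate 11, and the next lesional library was at 83.56 CPM. *Ryr1* stood at 193.2 CPM in non-lesional replicate 9 beside 338.3 CPM in the next, and *Pygm* at 340.5 CPM in the same library beside 586.1 CPM. Non-lesional replicate 9 had the lowest muscle share of its group, 3.71%. The muscle share of lesional replicate 11 was not set apart by this measure, because the other lesional libraries were themselves widely spread.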

How the results depend on the processing

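The count of 0 members past the threshold stayed at 0 under every alternative run, in all 3 comparisons. Counts over all genes between non-lesional and WT skin were 1 with DESeq2, 18 with no filter on low counts and 0 to 5 when single libraries were left out (5 without non-lesional replicate 6). Between lesional and WT skin DESeq2 called 14 genes. The slow-gene share without *Mybpc1* had medians of 0.000295%, 0.000596% and 0.000637% in WT, non-lesional and lesional skin, since that gene held most slow counts. Medians over members, fast and slow genes moved by less than the spread between libraries under all alternatives, although their sign changed when single libraries were left out. Of the 33 members tested, the log2 fold change of 3 to 11 changed sign from WT to non-lesional skin, 2 to 20 from WT to lesional and 0 to 22 from non-lesional to lesional skin when 1 library was left out, the most without lesional replicate 11 in both lesional comparisons (20 and 22). With both lesional replicates 2 and 11 left out, 18 and 22 did, with sets of 3 consecutive sample numbers as a block 1, 8 and 4 in the 3 comparisons, and with other tools, scalings and filters 0 to 2. None was past the adjusted threshold. Of 8 members followed singly (*Acta1*, *Mb*, *Myh1*, *Myh4*, *Pvalb*, *Smpx*, *Tcap* and *Tnnt1*), these changed sign. From WT to non-lesional skin, *Pvalb* was -0.0034 with DESeq2, -0.0029 with its size factors in edgeR and -0.00026 with no filter. Leaving out single libraries there, *Acta1* ran from -0.142 to 0.069 and *Pvalb* from -0.123 to 0.294. From WT to lesional skin, *Acta1* ran from -0.424 to 0.178, *Myh4* from -0.511 to 0.078, *Myh1* from -0.123 to 0.47 and *Pvalb* from -0.479 to 0.132. From non-lesional to lesional skin, *Acta1* ran from -0.383 to 0.216, *Tnnt1* from -0.324 to 0.738, *Pvalb* from -0.482 to 0.129 and *Tcap* from -0.369 to 0.314. With lesional replicates 2 and 11 both left out, an alternative chosen after seeing the data, *Acta1*, *Myh4* and *Pvalb* were 0.304, 0.381 and 0.388 against WT and 0.349, 0.161 and 0.393 against non-lesional skin, where *Tcap* was 0.439. The cause of these sign changes was not tested. The groups share no replicate number, and the labels do not say which samples came from 1 animal. The numbers 1 to 15 do cycle through the groups in sets of 3, and deviations from the group means correlated within these sets at 0.123 to 0.28 between non-lesional and WT skin (10 of 10 samples best with their own set), -0.093 to 0.255 between lesional and WT (5 of 10) and 0.111 to 0.36 between lesional and non-lesional skin (8 of 10), a hint from the data and not from the design. With the sets as a block, an alternative chosen after seeing the data, 8 genes passed between non-lesional and WT skin and 0 in the other comparisons, no muscle gene among them, and the medians over members were 0.016, -0.215 and -0.312, with *Myh1* at -0.015 from WT to lesional skin. With 1962604 to 2567138 counts per library, *Myh7*, *Myl2*, *Myl3*, *Tnnc1* and *Tnni1* were under the filter on low counts and were not tested, and *Tnnt1* rested on 1 to 30 counts a library.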

Other observations

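Several genes that share exon bases with a member on the opposite strand had nearly the counts of that member in every library. *Ube2c* had 96.2% to 100% of the counts of *Tnnc2* in the 15 libraries, from 846 counts in lesional replicate 11 to 9064 in lesional replicate 14, over 592 shared exon bases. *Rabep2* had 92.6% to 98.4% of those of *Atp2a1*, over 763 shared bases. Gm49540 had 95.3% to 100% of those of *Mb*, and Gm37759 had 92.9% to 100% of those of *Cacna1s*. *Myhas* had 77.2% to 84.6% of the counts of *Myh1*, 9430073C21Rik 62.9% to 76.4% of those of *Myh2*, and A930016O22Rik 39.9% of those of *Ckm* over all libraries. Other partners had few: Gm13938 had 76 counts beside 390046 of *Ttn*. *Ube2c* is a gene of dividing cells. In lesional replicate 11, where it was lowest, 2 other such genes were not: *Mki67* had 124 counts in a range of 41 to 156 and *Top2a* 517 in a range of 171 to 531. Among the WT libraries replicate 1 was lowest for all 3 genes. Whether the shared reads are those of *Tnnc2* was not tested.

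At the other end, the genes whose log2 CPM ran most against the summed level of the 38 were *Tor1aip2* (Pearson r = -0.931 over 15 libraries), *Atp6v1a* (-0.926), *Snx6* (-0.925), *Mmp9* (-0.920), *Slc30a1* (-0.920), *Srgn* (-0.918), *Stat3* (-0.917), *Dusp7* (-0.909), *Atp11b* (-0.907), *Arpc3* (-0.900), *Cdcp1* (-0.900), *Arf6* (-0.897), *Baz1a* (-0.891), *Gsto1* (-0.890) and *Igsf3* (-0.888). *Mmp9*, a matrix protease of neutrophils and activated epidermis, stood at 89.1 CPM in lesional replicate 11 and at a median of 6.52 CPM in the other 14 libraries. *Srgn*, the proteoglycan of immune cell granules, stood at 230 CPM beside a median of 25.4 CPM. Of the 15 lowest genes, 1 was still among the lowest 15 without lesional replicate 11, so which genes stand at this end rests on that library. Their r stayed negative without it, from -0.58 for *Arpc3* to -0.859 for *Slc30a1*.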
